A study of Homo sapiens with 18 samples.

Results

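The genes described here were 10 urothelial differentiation factors and uroplakins (PPARG, GATA3, FOXA1, ELF3, KLF5, TP63, GRHL2, UPK1B, UPK2 and UPK3A), chosen by symbol from the 39496 genes of the deposited tables. A row was found for 9 of the 10, and GRHL2 was not analysed here. The rule used gene names and no measured value, but it was set with earlier results of these data known. RNA-seq was done on 2 established human bladder cancer cell lines, UM-UC-3 and T24, both labelled as transitional cell cancer, which arises from the urothelium. Cells were transfected with a control siRNA (siNC, labelled WT) or with 1 of 2 siRNAs against ACAT1 (siACAT1-1 or siACAT1-2, both labelled as ACAT1 knockdown), with 3 libraries in each of the 6 groups. UM-UC-3 cells were grown in MEM and T24 cells in RPMI-1640, both with fetal bovine serum, so that cell line and medium cannot be told apart. The library totals of counted reads ran from 25163490 to 34417230 (median 28613163). ACAT1 itself, as a check of the labels, was at 44.1 RPKM or more in the siNC libraries of UM-UC-3 and at 3.59 RPKM or less in those with an ACAT1 siRNA, and the bounds in T24 were 14.6 and 1.46 RPKM. RPKM is a read count scaled to the exon length of a gene and to the library total, a level that can be compared between genes.

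The urothelium is the layered lining of the bladder, with basal cells at its base and umbrella cells at the lumen. PPARG, a nuclear receptor that binds DNA together with retinoid X receptors, acts with GATA3 and FOXA1, a zinc finger factor and a pioneer forkhead factor, in luminal differentiation. The ETS factor ELF3, the zinc finger factor KLF5 and the grainyhead factor GRHL2 are regulators of epithelial genes, and TP63, a p53 family member, marks the basal layer. Uroplakins are membrane proteins that form plaques on umbrella cells, where UPK1B pairs with UPK3A and UPK1A pairs with UPK2. Bladder cancers are sorted into luminal and basal classes by such genes.

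A promoter is shown for each of the 3 members with a mean above 1 RPKM over the 9 T24 libraries, PPARG, KLF5 and FOXA1. No member exceeded 0.602 RPKM in a UM-UC-3 library, so a higher level in T24 follows from this choice. The windows come from RefSeq (GRCh38.p14) and run from 250 bases before to 50 bases after an annotated start, and 7 members matched 18 such windows. They lie at chr3:12287118-12287417 on the plus strand for PPARG, 1 of 6 windows of this gene, at chr13:73054726-73055025 on the plus strand for KLF5, 1 of 2 windows, and at chr14:37595200-37595499 on the minus strand for FOXA1. Capitals mark matches to 5 motifs searched on both strands: the GC box GGGCGG, the TATA box TATAAA, the nuclear receptor half-site AGGTCA, the GATA motif AGATAA and the forkhead motif TGTTTAC.
PPARG: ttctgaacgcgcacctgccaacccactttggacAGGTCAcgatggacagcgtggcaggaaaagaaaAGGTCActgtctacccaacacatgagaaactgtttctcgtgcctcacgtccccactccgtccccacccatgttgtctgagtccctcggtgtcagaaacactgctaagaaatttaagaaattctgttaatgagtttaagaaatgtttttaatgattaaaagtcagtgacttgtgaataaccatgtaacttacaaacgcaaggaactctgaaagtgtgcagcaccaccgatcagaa
KLF5: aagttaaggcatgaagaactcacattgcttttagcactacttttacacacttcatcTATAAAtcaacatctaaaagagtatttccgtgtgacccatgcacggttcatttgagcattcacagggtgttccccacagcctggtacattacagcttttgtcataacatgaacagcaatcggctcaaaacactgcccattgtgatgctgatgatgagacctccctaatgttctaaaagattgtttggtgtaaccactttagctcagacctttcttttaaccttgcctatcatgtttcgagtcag
FOXA1: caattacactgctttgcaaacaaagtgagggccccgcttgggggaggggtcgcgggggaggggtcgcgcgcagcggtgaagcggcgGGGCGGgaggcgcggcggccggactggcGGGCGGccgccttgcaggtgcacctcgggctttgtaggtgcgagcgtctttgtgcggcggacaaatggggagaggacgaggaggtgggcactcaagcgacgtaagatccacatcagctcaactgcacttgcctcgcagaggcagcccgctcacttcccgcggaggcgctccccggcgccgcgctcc
The PPARG window held AGGTCA at 2 places, the KLF5 window TATAAA at 1 place and the FOXA1 window GGGCGG at 2 places. Of 35116 promoter windows of this length, 13.8% held AGGTCA, 11.5% held TATAAA, 45.0% held GGGCGG, 10.3% held AGATAA and 3.42% held TGTTTAC. The other KLF5 window differed from the printed one in holding 37 CpG dinucleotides against 4 and the GC box at 2 places, while the FOXA1 window held 34 CpG. These matches describe letters, and counts per gene cannot tell the starts of PPARG or KLF5 apart.

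Most of the members were low in both cell lines. A member was called near zero in a cell line when its level was under 0.1 RPKM in each of the 9 libraries. In UM-UC-3 cells 3 of 9 members were near zero (ELF3, UPK1B and UPK3A), and in T24 cells 4 of 9 (ELF3, TP63, UPK1B and UPK3A). No member exceeded 0.602 RPKM in any UM-UC-3 library, and 8 of 9 stayed under 0.5 RPKM in each of them. In T24 cells only PPARG, KLF5 and FOXA1 had a mean above 1 RPKM over the 9 libraries. The summed level of the 9 members lay between 1.06 and 1.46 RPKM in UM-UC-3 libraries and between 7.75 and 14.6 RPKM in T24 libraries, so that the ranges of the cell lines did not overlap. In bulk RNA, fewer cells that express a gene and less RNA per cell cannot be told apart.

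**Figure D1:**
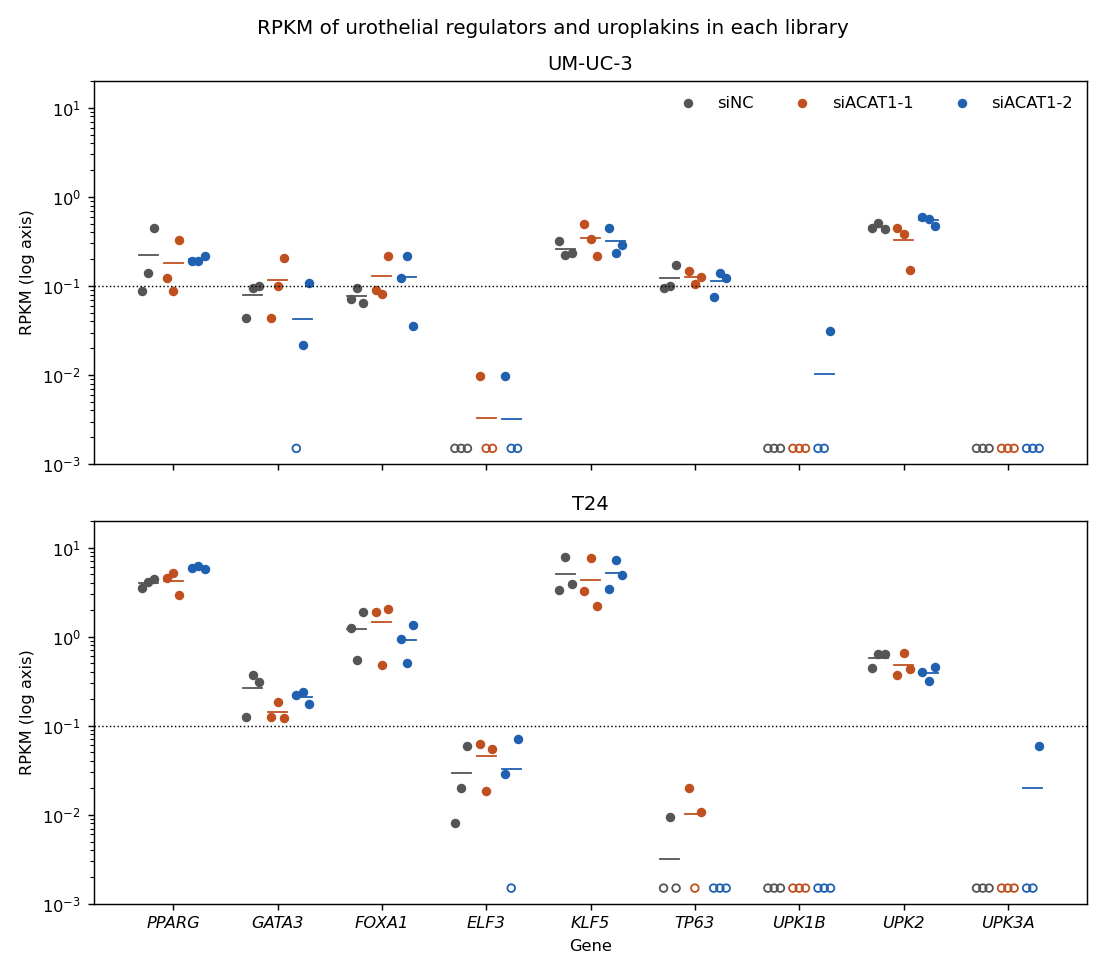
RPKM (log axis) of the 9 members in each of the 18 libraries, by cell line and siRNA. Filled points are libraries, open points at the bottom are libraries with 0 counts, bars are group means and the dotted line marks 0.1 RPKM. PPARG, KLF5 and FOXA1 lie higher in every T24 library than in every UM-UC-3 library, TP63 lies higher in UM-UC-3, and UPK1B and UPK3A have 1 library above 0 each.

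Among the uroplakins, the partners UPK1B and UPK3A were close to absent from the counts. UPK1B (chromosome 3 from 119173517 to 119205153, plus strand, 2266 bases of exon) had 2 counts in 1 UM-UC-3 library, replicate 3 of siACAT1-2, and 0 in the other libraries. A count of 0 allows up to 3 counts, here 0.0413 to 0.0469 RPKM in UM-UC-3 and 0.0385 to 0.0526 RPKM in T24 libraries. UPK3A (chromosome 22 from 45284982 to 45295874, plus strand, 1051 bases of exon) had 2 counts in 1 T24 library, also replicate 3 of siACAT1-2, and 0 in the other libraries. For this short gene a count of 0 allows 0.0890 to 0.101 RPKM in UM-UC-3 and 0.0829 to 0.113 RPKM in T24 libraries. Counting intervals and these limits cover counting error only, and 74.4% of counts from 1 to 10 were even, as when both mates of a pair are counted, so that a count of 2 may be 1 fragment.

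UPK2 (chromosome 11 from 118925164 to 118958559, plus strand) was the only uroplakin member with counts in all 18 libraries. Its level in replicates 1, 2 and 3 of siNC was 0.448, 0.507 and 0.439 RPKM in UM-UC-3 cells and 0.447, 0.642 and 0.645 RPKM in T24 cells. The cell lines overlapped, and over all treatments UPK2 ranged from 5 to 19 counts in UM-UC-3 and from 10 to 22 counts in T24 libraries. BCL9L, a gene on the opposite strand with 1319 to 3278 counts per library, shares 54 of the 1106 exon bases of UPK2 (4.88%). The strand setting of the counting is not given in the sources used here, so reads from BCL9L cannot be told apart from UPK2 reads in those bases. BCL9L had far more counts than UPK2, so its part in the UPK2 counts is unknown and may be large.

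The other uroplakins, on the luminal list, were low as well. UPK1A, the partner of UPK2, had 0.287 ± 0.135 RPKM (SD, n = 9 libraries) in UM-UC-3 and 0.0588 ± 0.0570 RPKM (SD, n = 9 libraries) in T24 cells. UPK3B was at 0.00280 ± 0.00841 and 0.0532 ± 0.0450 RPKM (SD, n = 9 libraries), respectively. None of these 5 uroplakins reached 1 RPKM in a library of either cell line.

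In T24 cells with siNC, KLF5 had the highest level of the members, followed by PPARG. KLF5 (chromosome 13 from 73054976 to 73077542, plus strand, 3893 bases of exon) was at 3.33, 7.77 and 3.88 RPKM in replicates 1, 2 and 3, and at 0.319, 0.224 and 0.233 RPKM in UM-UC-3 cells. Each T24 library lay far above each UM-UC-3 library. UM-UC-3 cells differed from T24 cells by -4.20 on the log2 scale (standard error 0.48, adjusted p = 2.7e-06 with edgeR's quasi-likelihood test and Benjamini-Hochberg adjustment over 20144 genes). In summed counts the ratio of T24 to UM-UC-3 was 19.0 (95% exact interval 15.4 to 23.8). This and the exact intervals given below leave out the spread between libraries, and they are too narrow if both mates of a pair were counted.

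PPARG (chromosome 3 from 12287368 to 12434356, plus strand, 4046 bases of exon) was at 3.55, 4.15 and 4.41 RPKM in the siNC libraries of T24 and at 0.0876, 0.139 and 0.448 RPKM in those of UM-UC-3. The T24 libraries were close to each other, while UM-UC-3 replicate 3 was well above the other two UM-UC-3 libraries. On the log2 scale UM-UC-3 cells differed from T24 cells by -4.12 (standard error 0.47, adjusted p = 2.7e-06), and the ratio of summed counts was 17.6 (95% exact interval 14.1 to 22.2). Without UM-UC-3 siNC replicate 3 the difference was -5.07.

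FOXA1 (chromosome 14 from 37589984 to 37596059, minus strand, 3982 bases of exon) was at 1.24, 0.552 and 1.89 RPKM with siNC in T24 and at 0.0712, 0.0939 and 0.0650 RPKM in UM-UC-3 cells. The lowest T24 library was above the highest UM-UC-3 library. The fitted difference was -3.94 on the log2 scale (standard error 0.71, adjusted p = 2.6e-04), with a ratio of summed counts of 15.9 (95% exact interval 10.9 to 24.2). TTC6 on the opposite strand shares 16 exon bases with FOXA1 and had at most 22 counts.

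GATA3 (chromosome 10 from 8053604 to 8075198, plus strand, 3253 bases of exon) was low in both cell lines. With siNC it was at 0.125, 0.371 and 0.307 RPKM in T24 cells, from 14, 34 and 28 counts, and at 0.0436, 0.0958 and 0.0995 RPKM in UM-UC-3 cells, from 4, 10 and 10 counts. The siNC groups did not overlap, and the log2 fold change was -1.65 (standard error 0.70, edgeR adjusted p = 0.064), short of the threshold. The adjusted p ranged from 0.0233 to 0.191 over the alternatives, with DESeq2 at 0.0281 and the fit without T24 siNC replicate 1 at 0.0433. With all treatments the value was -1.40 (standard error 0.41, adjusted p = 0.0067 in edgeR without a block), and -2.02 without UM-UC-3 siACAT1-2 replicate 3. The 9 libraries of each cell line overlapped, at 0.122 to 0.371 RPKM in T24 and 0 to 0.206 RPKM in UM-UC-3.

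ELF3 (chromosome 1 from 202007945 to 202017188, plus strand, 7191 bases of exon) was near zero in both cell lines. With siNC it had 2, 4 and 12 counts in T24 cells and 0 counts in each UM-UC-3 library, and UM-UC-3 cells had 4 counts in all 9 libraries together. Measured against 3 counts summed over the UM-UC-3 siNC group, the 18 counts of ELF3 over the T24 siNC libraries were 6.04-fold higher. This bound leaves out the error of the T24 counts, so the difference may be smaller. It passed the test in the siNC libraries (edgeR adjusted p = 0.028), but not with a random replicate block in limma-voom (adjusted p = 0.0529), nor without replicate 3 of T24 siNC (log2 fold change -4.59, adjusted p = 0.103) or without any 1 UM-UC-3 siNC library. RP11-465N4.4 and RP11-510N19.5 share 554 and 664 of its exon bases, at 0 to 18 and 0 to 5 counts per library.

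TP63 was the one member that was higher in UM-UC-3 cells. The gene (chromosome 3 from 189631416 to 189897279, plus strand, 7454 bases of exon) was at 0.0951, 0.1003 and 0.174 RPKM in the siNC libraries of UM-UC-3, from 20, 24 and 40 counts. In T24 it had 2 counts in replicate 2 and 0 in the other two siNC libraries. The ratio of summed counts was 41.7 (95% exact interval 11.2 to 350.3), and the fitted difference was 5.16 on the log2 scale (standard error 0.86, adjusted p = 2.2e-04), which rests on those 2 counts in T24. Without that library, where T24 siNC has 0 counts, the fitted difference was 7.76 and is no bound. Over all treatments each UM-UC-3 library, with at least 0.0752 RPKM, was above each T24 library, with at most 0.0198 RPKM. The level was still low, at a mean of 0.121 ± 0.0303 RPKM (SD, n = 9 libraries) in UM-UC-3 cells.

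UPK2, whose counts may include reads from BCL9L, did not pass the test between the cell lines. Its log2 fold change was -0.25 with siNC (95% interval -1.09 to 0.58, edgeR adjusted p = 0.63) and -0.11 over all treatments (95% interval -0.60 to 0.38, adjusted p = 0.69). UPK1B and UPK3A did not pass the filter on low counts, so 7 of the 9 members were tested.

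Of the 7 members tested with siNC, 1 was higher in UM-UC-3 cells and 4 were lower. Among all genes tested 44.3% passed between these cell lines, 22.0% higher and 22.3% lower, so that a call by itself is common here. The members' median log2 fold change was -3.94 against 0.030 for all genes, or -2.59 with ELF3 set to its bound and TP63 to its count ratio. The value of -2.59 is the bound of ELF3 itself, which rests on 18 counts in T24 and leaves out their error. Over all treatments 6 of 7 members passed, 1 higher and 5 lower (GATA3 was added), against 66.1% of all genes (33.2% higher and 32.9% lower), with a median of -3.43 against 0.029. There PPARG stood at -4.51 on the log2 scale (standard error 0.28, adjusted p = 3.3e-10), KLF5 at -3.93 (standard error 0.27, adjusted p = 1.5e-09) and FOXA1 at -3.43 (standard error 0.39, adjusted p = 7.8e-07). TP63 was at 5.46 (standard error 0.54, adjusted p = 3.5e-07), and ELF3 at -4.11 (standard error 0.91, adjusted p = 9.9e-04). TP63 was at 6.33 without T24 siNC replicate 2, and ELF3 at -5.01 without either UM-UC-3 library that had counts of it. These values are from edgeR without a block, which leaves out the pairing of same-numbered libraries. With a random replicate block in limma-voom, 1 member was also called higher and 5 lower, with 10565 of 20144 genes called. Over the alternatives (edgeR, DESeq2 and limma) the adjusted p reached 4.2e-04 for FOXA1 and 0.034 for ELF3 and GATA3.

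**Figure D2:**
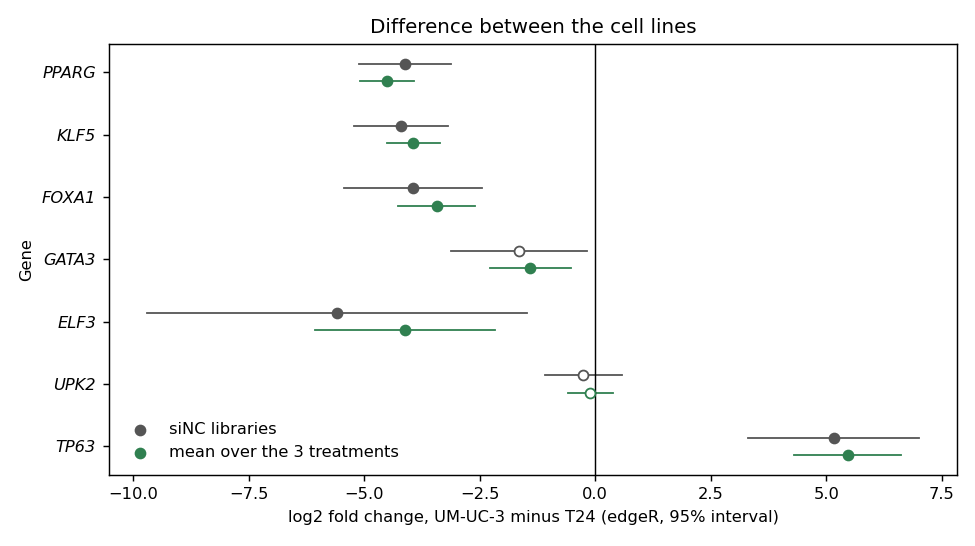
Log2 fold change of UM-UC-3 minus T24 (x axis) for the 7 members tested, with 95% intervals from edgeR without a block, in the siNC libraries (grey) and as the mean over the 3 treatments (green). Filled points passed an adjusted p of 0.05. PPARG, KLF5 and FOXA1 lie between -4.51 and -3.43, UPK2 lies at about 0 and TP63 above 5. The siNC point of ELF3 is a fit against 0 counts and is no bound.

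Ordered by mean RPKM with siNC, UM-UC-3 cells had UPK2 first (0.465 RPKM), apart from KLF5 (0.258 RPKM). Here neighbours are apart when all 3 values of one lie above all 3 of the other. KLF5, PPARG (0.225 RPKM), TP63 (0.123 RPKM), GATA3 (0.0796 RPKM) and FOXA1 (0.0767 RPKM) followed with no neighbours apart, and ELF3, UPK1B and UPK3A were at 0. In T24 cells KLF5 (4.99 RPKM) and PPARG (4.03 RPKM) were not apart from each other, and PPARG was apart from FOXA1 (1.23 RPKM). FOXA1 was not apart from UPK2 (0.578 RPKM), which was apart from GATA3 (0.268 RPKM), and GATA3 was apart from ELF3 (0.0291 RPKM). By these counts UPK2 was the highest member in UM-UC-3 cells and the fourth in T24 cells, at a level that overlapped between them. Its 5 to 22 counts per library may include reads from BCL9L, so its place is uncertain.

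Levels also differed by replicate number within a cell line. In T24 cells the 3 libraries numbered 2 had 7.27 to 7.77 RPKM of KLF5, and the other 6 had 2.20 to 4.86 RPKM. The same 3 libraries had 0.483 to 0.552 RPKM of FOXA1, against 0.933 to 2.03 RPKM in the others. KLF5 was thus highest and FOXA1 lowest in the same libraries with each of the 3 siRNAs. In UM-UC-3 cells the libraries numbered 3 had 0.217 to 0.448 RPKM of PPARG, above the 0.0876 to 0.190 RPKM of the other libraries. Neither the labels nor the study's methods say what a number marks, and its part in these levels was not tested. Without the T24 libraries numbered 2, which was tried after seeing the data, the difference between the lines with siNC still passed for KLF5, PPARG, FOXA1, ELF3 and TP63.

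**Figure D3:**
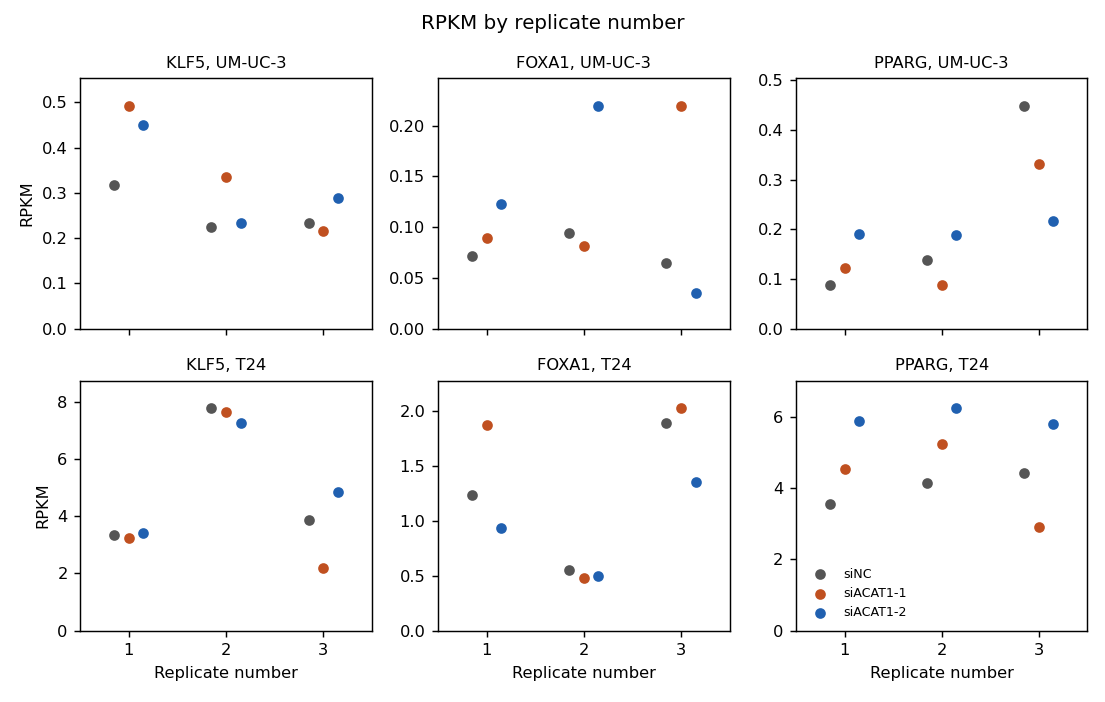
RPKM of KLF5, FOXA1 and PPARG by replicate number, in UM-UC-3 (top) and T24 (bottom), each point a library coloured by its siRNA. In T24 the 3 libraries numbered 2 stand highest for KLF5 and lowest for FOXA1, and PPARG with siACAT1-2 stays between 5.80 and 6.23 RPKM. The axes start at 0 and differ between panels.

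Genes with the most similar pattern were sought for PPARG, FOXA1 and KLF5, as the Pearson r of log2(CPM + 1) over the 18 libraries after the mean of each cell line was subtracted. This is a description, in which all points share the library. For KLF5, among the closest of 13234 genes were ADNP2 (r = 0.95) and CCDC68 (r = 0.93). FOXA1 was followed most closely by FBXW2 (r = 0.90), WNK4 (r = 0.89) and STK25 (r = 0.89), with r of at least 0.97 in T24 libraries and between 0.11 and 0.46 in UM-UC-3 libraries. PPARG had PDIA3P1 (r = 0.84), CATSPER2P1 (r = 0.81) and PMM1 (r = 0.80).

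None of the members passed the test for an effect of the ACAT1 siRNAs. The comparisons of each siRNA with siNC of its cell line, their mean, the difference between the cell lines and the difference between the siRNAs made 49 tests over 7 comparisons, with 0 calls in edgeR (lowest adjusted p = 0.173, 1 test at an unadjusted p under 0.05) and 0 in DESeq2 (1 at an unadjusted p under 0.05). With the replicate number as a block there were also 0 calls (lowest adjusted p = 0.0807, 2 at an unadjusted p under 0.05). Few genes passed at all without the block. Of all genes tested, the share called in UM-UC-3 was 0.00993% for siACAT1-1 and 0.0546% for siACAT1-2. It was 0.124% and 0.268% in T24, 0.223% for the mean, 0% for the difference between the cell lines and 2.56% for the difference between the siRNAs. With the block the shares were 3.06% and 1.36% in UM-UC-3, 13.9% and 8.48% in T24, 12.4% for the mean, 0.104% between the cell lines and 20.6% between the siRNAs.

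In the model with the block, PPARG with siACAT1-2 in T24 cells had the lowest adjusted p of the members. It was at 5.89, 6.23 and 5.80 RPKM with siACAT1-2 and at 3.55, 4.15 and 4.41 RPKM with siNC, and the groups did not overlap. The log2 fold change was 0.59 (95% interval -0.25 to 1.43, edgeR adjusted p = 0.757), and 0.58 with the replicate block (adjusted p = 0.0807), against 0.268% and 8.48% of all genes called in this comparison. With siACAT1-1 it was at 4.53, 5.24 and 2.90 RPKM, on both sides of siNC (log2 fold change 0.077, 95% interval -0.76 to 0.91). Within replicate numbers PPARG was higher than with siNC in 5 of 6 T24 libraries with an ACAT1 siRNA. In UM-UC-3 cells it was higher in 3 of 6, with log2 fold changes of -0.31 (95% interval -1.34 to 0.72) and -0.21 (95% interval -1.23 to 0.81). The second of these was 0.72 without the libraries numbered 3, left out after seeing the data.

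KLF5 in T24 cells was at 3.23, 7.64 and 2.20 RPKM with siACAT1-1 and at 3.40, 7.27 and 4.86 RPKM with siACAT1-2, and both groups overlapped with siNC. Its log2 fold changes were -0.18 (95% interval -1.04 to 0.68) and 0.071 (95% interval -0.78 to 0.93). In UM-UC-3 cells it was at 0.491, 0.335 and 0.216 RPKM with siACAT1-1 and at 0.450, 0.233 and 0.288 RPKM with siACAT1-2. The groups overlapped with siNC, at log2 fold changes of 0.42 (95% interval -0.58 to 1.42) and 0.29 (95% interval -0.72 to 1.29). Within replicate numbers the RPKM of KLF5 was higher than with siNC in 5 of 6 UM-UC-3 libraries with an ACAT1 siRNA and in 2 of 6 T24 libraries. In UM-UC-3 replicate 2 of siACAT1-2 it was higher only by library total, at 26 counts against 28.

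FOXA1 in T24 cells was at 1.87, 0.483 and 2.03 RPKM with siACAT1-1 (log2 fold change 0.27, 95% interval -0.95 to 1.49) and at 0.933, 0.499 and 1.35 RPKM with siACAT1-2 (log2 fold change -0.38, 95% interval -1.61 to 0.85). Both groups overlapped with siNC. In UM-UC-3 cells, with 4 to 26 counts per library, the log2 fold changes were 0.75 (95% interval -0.83 to 2.32) and 0.67 (95% interval -0.91 to 2.25). FOXA1 was higher than in the siNC library of the same number in 4 of 6 UM-UC-3 and 2 of 6 T24 libraries.

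GATA3 had log2 fold changes of -0.85 (95% interval -2.26 to 0.55) and -0.29 (95% interval -1.66 to 1.08) in T24 cells and of 0.54 (95% interval -0.98 to 2.06) and -0.93 (95% interval -2.61 to 0.76) in UM-UC-3 cells, with siACAT1-1 and siACAT1-2 in this order. Its intervals were among the widest, from 0 to 34 counts per library. In RPKM, GATA3 was lower than with siNC of the same number in 5 of 6 T24 libraries and higher in 4 of 6 UM-UC-3 libraries. The UM-UC-3 counts of GATA3 were 4, 10 and 10 with siNC, 4, 10 and 20 with siACAT1-1 and 0, 2 and 10 with siACAT1-2. Some of those 4 libraries thus had the same count as siNC and differed only by library total. UPK2 was at -0.23 (95% interval -1.06 to 0.61) and -0.51 (95% interval -1.36 to 0.33) in T24 cells and at -0.50 (95% interval -1.37 to 0.36) and 0.20 (95% interval -0.64 to 1.03) in UM-UC-3 cells. Within replicate numbers the RPKM of UPK2 was lower than with siNC in 5 of 6 T24 libraries with an ACAT1 siRNA and higher in 4 of 6 UM-UC-3 libraries. Here too some of the 4 had equal counts, with 14, 18 and 15 for siNC, 14, 13 and 5 for siACAT1-1 and 19, 18 and 15 for siACAT1-2.

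TP63 in UM-UC-3 cells had 31, 24 and 28 counts with siACAT1-1 and 16, 30 and 26 counts with siACAT1-2, against 20, 24 and 40 with siNC. The log2 fold changes were 0.034 (95% interval -1.19 to 1.26) and -0.16 (95% interval -1.40 to 1.07). In RPKM 3 of 6 libraries were above the siNC library of the same number, replicate 2 of siACAT1-1 only by library total, at 24 counts each. T24 had for TP63 2 counts over siNC, 6 over siACAT1-1 and 0 over siACAT1-2 libraries, and the single test at an unadjusted p under 0.05 without the block was its difference between the siRNAs (unadjusted p = 0.0165, adjusted p = 0.173 with edgeR). No fold is given for these counts. ELF3 in T24 cells had 12, 4 and 10 counts with siACAT1-1 and 6, 0 and 16 with siACAT1-2, overlapping with the 2, 4 and 12 of siNC.

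Averaged over the 4 comparisons with siNC, the log2 fold change was 0.036 (95% interval -0.55 to 0.62) for PPARG, 0.15 (95% interval -0.42 to 0.72) for KLF5, 0.33 (95% interval -0.55 to 1.199) for FOXA1, -0.38 (95% interval -1.29 to 0.52) for GATA3 and -0.26 (95% interval -0.77 to 0.25) for UPK2. Each interval included 0, and none of these values passed the test. The comparisons with siACAT1-1 and siACAT1-2 share the siNC libraries of their cell line.

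**Figure D4:**
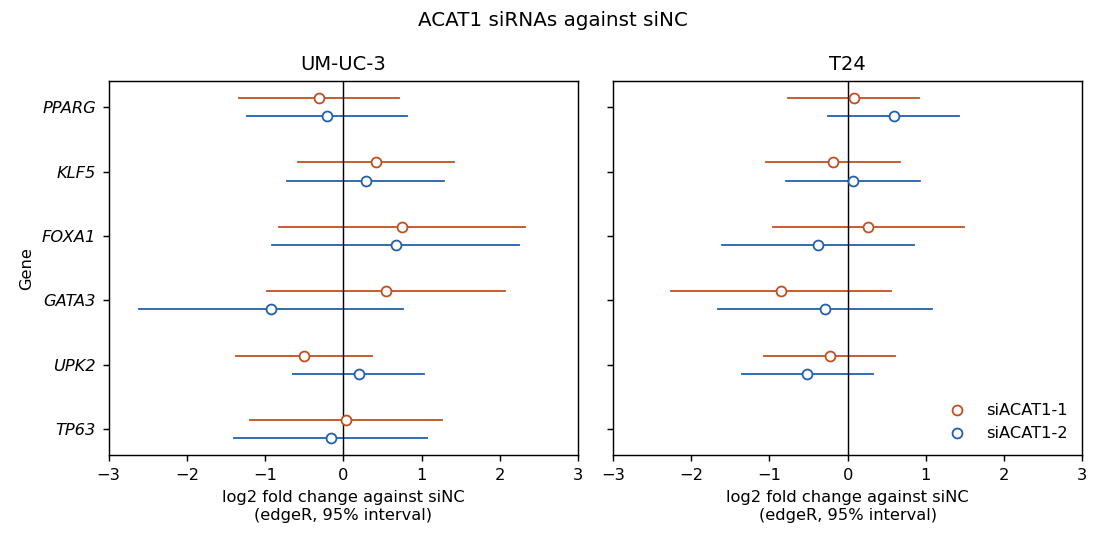
Log2 fold change of each ACAT1 siRNA against siNC (x axis) with 95% intervals from edgeR, for 6 members in UM-UC-3 (left) and 5 in T24 (right, without TP63). ELF3 is not shown in either panel. Open points did not pass an adjusted p of 0.05. All points are open and every interval includes 0, and the highest of the values shown in T24 is that of PPARG with siACAT1-2, at 0.59.

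Other genes of the same programme gave the setting of these levels. A list of 20 epithelial genes lies downstream of factors such as GRHL2 and ELF3 in epithelia. Of its 14 tested genes 9 were lower and 0 higher in UM-UC-3 than in T24 cells with siNC, against 22.3% and 22.0% of all genes. The list median log2 fold change was -2.44, against 0.030 for all genes. Among the list genes with the largest differences, KRT19, a simple keratin, was at -7.78 (standard error 1.05), the desmosomal DSP at -7.39 (standard error 0.29) and the adhesion molecule EPCAM at -5.34 (standard error 0.67). The summed level of the 20 genes was 3.39 to 4.47 RPKM in UM-UC-3 and 33.3 to 71.4 RPKM in T24 libraries. Most of the T24 sum came from DSP, KRT19 and AP1M2, with means of 20.9, 16.4 and 7.42 RPKM over 9 libraries. PKP3, CLDN7, ST14, MARVELD3, CLDN3 and CDH1 had a higher mean in UM-UC-3 than in T24, with CLDN7 at 0.264 against 0.0794 RPKM. CDH1, which encodes E-cadherin, was near zero in both cell lines, with 6 and 3 counts over 9 libraries.

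Luminal and basal markers and the lists that follow were counted in the same way. For each list with siNC, the shares over all genes were 22.0% called higher and 22.3% called lower. Of 11 luminal markers tested, 5 were not called, 1 was higher (the receptor FGFR3, log2 fold change 2.83, standard error 0.77) and 5 were lower, led by the keratins KRT7 (-6.05, standard error 0.69) and KRT8 (-2.60, standard error 0.47) and by the T-box factor TBX3 (-1.16, standard error 0.25), with a list median of -0.97. Of 8 basal markers tested, 0 were higher and 5 lower, with a median of -3.04 (-2.89 with genes at 3 counts or fewer set to their bound or count ratio). Desmocollin DSC3 had 2 counts in UM-UC-3 against 3217 in T24 siNC libraries, a ratio of 1619 (95% exact interval 447.7 to 13370), and the laminin chain LAMB3 was at -3.88 (standard error 0.64). ITGB4 and PI3 had 0 counts in UM-UC-3 siNC libraries and, against 3 counts there, were 29.9-fold and 12.1-fold higher in T24. These bounds leave out the error of the T24 counts. PI3 in T24 siNC libraries was at 0.731 ± 1.07 RPKM (SD, n = 3 libraries). The basal keratins KRT5, KRT14, KRT6A, KRT6B and KRT6C were near zero in both cell lines, as were the luminal markers SNX31, CYP2J2, CYP4B1, VGLL1, SPINK1 and FBP1.

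Among 16 tested partner factors, 3 were higher and 7 lower in UM-UC-3 cells with siNC (median -0.44). The largest were TFAP2C (-5.19, standard error 0.47), AHR (-4.65, standard error 0.80), FOXA2, with a count ratio of 26.2 (95% exact interval 6.89 to 221.7), and TP73 (-2.88, standard error 0.72). The PPARG partners RXRA and RXRB were present in both cell lines, at 1.32 ± 0.3604 and 3.03 ± 0.497 RPKM in UM-UC-3 and 2.78 ± 0.791 and 2.28 ± 0.513 RPKM in T24 cells (SD, n = 9 libraries). Of 7 PPAR targets tested, 4 were higher and 1 lower in UM-UC-3 cells (median 1.28, against 0.030 for all genes). CD36, a fatty acid transporter, was at 6.68 (standard error 0.52), CPT1A, of mitochondrial fatty acid import, at 5.004 (standard error 0.32) and ANGPTL4, a lipase inhibitor, at 4.50 (standard error 0.95), while FABP4, a lipid carrier often used as a PPARG target, was at -2.37 (standard error 0.48). These genes also respond to the other PPAR receptors.

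Mesenchymal markers were mixed, with 4 higher and 4 lower of 13 tested with siNC (median -0.10). SNAI2 (-5.79, standard error 0.70) and FN1 (-4.09, standard error 0.38) were lower and SNAI1 (2.85, standard error 1.10) and COL3A1 (1.80, standard error 0.25) higher in UM-UC-3 cells. VIM was high in both, at 248 ± 45.0 RPKM in UM-UC-3 and 219 ± 72.7 RPKM in T24 cells (SD, n = 9 libraries). Of markers of other cell types, the 7 leukocyte genes summed to at most 0.880 RPKM in a library, with PTPRC near zero in both cell lines and 0 of 2 tested called with siNC (ITGAX 1.29, ITGAM 1.58). The 5 endothelial genes summed to at most 0.349 RPKM, with PECAM1 and CDH5 near zero, and 2 of 2 tested were higher in UM-UC-3 cells (TEK, a count ratio of 28.8 with a 95% exact interval of 7.63 to 243.6, and PECAM1 at 1.74). Of 2 neuroendocrine genes tested, SYP was higher (1.98, standard error 0.25), and CHGA was near zero in both cell lines. Over all treatments 33.2% of all genes were called higher in UM-UC-3 and 32.9% lower. The list calls higher and lower were 2 and 7 of 11 luminal, 0 and 8 of 8 basal and 5 and 8 of 16 partner genes. They were 1 and 10 of 14 epithelial, 4 and 2 of 7 PPAR target and 4 and 3 of 13 mesenchymal genes. The leukocyte, endothelial and neuroendocrine lists had 2 and 0 of 2 each. These counts and those with siNC are from edgeR without a block. With a random replicate block in limma-voom, 10565 of 20144 genes were called over all treatments (5323 higher and 5242 lower) against 13310 without it. The basal calls were then 0 higher and 6 lower, the epithelial calls 0 and 9, the partner calls 5 and 7, and 1 of 2 endothelial and 1 of 2 neuroendocrine genes was higher. The counts of the luminal, PPAR target, mesenchymal and leukocyte lists were the same as without it. With siNC that model called 4535 of 20144 genes higher and 4465 lower. Its list calls higher and lower were 1 and 5 of 11 luminal, 0 and 4 of 8 basal and 4 and 7 of 16 partner genes. They were 0 and 9 of 14 epithelial, 4 and 1 of 7 PPAR target and 4 and 4 of 13 mesenchymal genes. Of 2 genes tested in each list, 0 leukocyte genes were called, and 1 endothelial gene, TEK, and 1 neuroendocrine gene were higher. Among the largest over all treatments in edgeR, beside genes named above, were UPK1A (2.28), SPINT1 (-5.28), PDGFRB (2.57) and NCAM1 (1.64).

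With the ACAT1 siRNAs, 0 genes of these 9 lists passed in edgeR against siNC or in the mean. In the difference between the siRNAs 2.56% of all genes passed, 237 higher and 278 lower with siACAT1-2. There 5 list genes passed, all higher with siACAT1-2 than with siACAT1-1. They made up 1 of 11 luminal, 1 of 16 partner, 2 of 13 mesenchymal and 1 of 2 neuroendocrine genes tested. These were the receptor ERBB2 (log2 difference 0.46, adjusted p = 0.0203), the retinoic acid receptor RARG (1.37, adjusted p = 0.0053), VIM (0.69, adjusted p = 0.0255), FN1 (0.99, adjusted p = 0.0342) and SYP (1.19, adjusted p = 0.0024). With the replicate block, which called 12.4% of all genes in the mean of the 4 comparisons, 4 of 11 luminal markers were lower in that mean, ERBB3 (-0.61, adjusted p = 0.0316), KRT7 (-0.33, adjusted p = 0.0083), KRT18 (-0.31, adjusted p = 0.0042) and KRT8 (-0.19, adjusted p = 0.0468). Of 8 basal markers LAMB3 was higher (0.48, adjusted p = 0.0074) and EGFR lower (-0.24, adjusted p = 0.0450) in that model. RARG among the partner factors (-0.41, adjusted p = 0.0242) and SPINT2 among the epithelial genes (-0.61, adjusted p = 0.0346) were lower, and the PPAR target ANGPTL4 was higher (1.50, adjusted p = 0.0064). Of 13 mesenchymal markers SNAI2 and SPARC were higher and ACTA2 and CDH2 lower, and of 2 neuroendocrine genes SYP was lower. In UM-UC-3 with siACAT1-1 the model with the block called 3.06% of all genes, and of the lists 0 higher and 2 lower of 11 luminal (KRT8 at -0.46, adjusted p = 0.0196, and KRT18 at -0.48, adjusted p = 0.0202), 2 and 0 of 8 basal, 1 and 1 of 16 partner, 1 and 0 of 7 PPAR target, 0 and 1 of 13 mesenchymal and 0 and 1 of 2 neuroendocrine genes. With siACAT1-2, at 1.36% of all genes, it called 0 and 2 luminal (KRT8 at -0.48, adjusted p = 0.0196, and KRT18 at -0.44, adjusted p = 0.0449) and 0 and 1 of 14 epithelial genes. In T24 with siACAT1-1, at 13.9% of all genes, 0 and 3 luminal genes were called (KRT7 at -0.68, adjusted p = 0.0014, KRT18 at -0.33, adjusted p = 0.0454, and ERBB3 at -1.16, adjusted p = 0.0177), with 1 and 0 basal, 1 and 2 partner, 0 and 3 epithelial, 2 and 0 PPAR target, 0 and 5 mesenchymal and 0 and 1 neuroendocrine genes. In T24 with siACAT1-2, at 8.48% of all genes, 1 and 0 luminal (KRT8 at 0.35, adjusted p = 0.0364), 3 and 0 basal (CD44 at 0.56, adjusted p = 0.0027, KRT17 at 1.51, adjusted p = 0.0351, and PI3 at 1.77, adjusted p = 0.0434), 2 and 0 partner and 2 and 1 mesenchymal genes were called. FN1 in T24 was lower with siACAT1-1 (-0.87, adjusted p = 0.0014) and higher with siACAT1-2 (0.77, adjusted p = 0.0049). In these comparisons with siNC and their mean, the lists not named had 0 calls. In the difference between the siRNAs the model with the block called 20.6% of all genes. Its calls higher and lower with siACAT1-2 were 3 and 0 luminal, 0 and 1 basal, 6 and 2 partner and 2 and 0 epithelial genes. They were 0 and 2 PPAR target, 6 and 1 mesenchymal and 1 and 0 neuroendocrine genes. In the difference between the cell lines, at 0.104% of all genes, it called 1 of 13 mesenchymal genes. The comparisons in a cell line share their siNC libraries. The median of the members was 0.036 in the mean without the block, against -0.0013 for all genes.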

How the data were processed

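RNA from 18 libraries was analysed. Per the labels and the study's methods, the authors made stranded libraries with molecular identifiers (KC-Digital kit), used Trimmomatic 0.36 for trimming and STAR 2.5.3 for mapping to GRCh38 and counted reads on exons with featureCounts (Subread 1.5.1). They deposited raw counts and RPKM values, which equal the counts divided by exon length and library total. The annotation release, the strand setting and the collapse of identifiers are not given in the sources used here. All 18 libraries were fitted in 1 model of the 6 groups with edgeR 4.0.16 in R 4.3.3 (TMM, filterByExpr, quasi-likelihood test, two-sided, tested on simulated data), with Benjamini-Hochberg adjustment over 20144 genes and calls at an adjusted p under 0.05. The labels call the libraries biological replicates but do not describe separate cultures, so p values measure only the spread between these libraries. DESeq2 1.42.0, limma 3.58.1 (log2(RPKM + 0.1) or voom), other filters, single lines, left-out libraries and the replicate number as a block were alternatives.

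Within a line, same-numbered libraries shared their deviation from the means of their groups, with r of 0.115 to 0.576 in 9 UM-UC-3 pairs and 0.356 to 0.686 in 9 T24 pairs, so the numbers were taken to pair libraries, from the data alone. In the line comparison the block was a random effect in limma-voom (correlation 0.523).

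Members and lists were chosen with earlier results of these data known. Each member was named throughout, and from each list up to 4 called genes with the largest log2 fold change, or up to 2 of the highest RPKM where none was called and the comparison is described. KRT20 and DSG3, on the lists, were not analysed here, and some genes that the naming rule gives are not reported here. Members were matched by symbol to RefSeq promoters, and intervals of count ratios are exact (Clopper-Pearson) and cover counting error only.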

Additional observations from a re-analysis of the deposited data

How the results depend on the processing

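Over all alternatives and left-out libraries, PPARG, KLF5, FOXA1 and TP63 kept the direction and the call of their line difference. That of ELF3 with siNC also missed the threshold with limma on log2(RPKM + 0.1) (adjusted p = 0.161) and without the UM-UC-3 libraries numbered 3 (adjusted p = 0.0755), and that of GATA3 passed in 5 of 8 alternatives and without 1 of 6 siNC libraries. Near zero at 0.5 RPKM in each library held 8 of 9 members in UM-UC-3 and 5 of 9 in T24, adding GATA3 there, and under 10 counts in each library held 3 in each line (in T24 TP63, UPK1B and UPK3A, without ELF3). Leaving out the T24 libraries numbered 2 turned PPARG to -0.10 with siACAT1-1 in T24 and to -0.0072 in the mean. Leaving out the UM-UC-3 libraries numbered 3 turned UPK2 over all treatments to 0.055 and, with siACAT1-2 in UM-UC-3, PPARG to 0.72 and TP63 to 0.13. Both settings were chosen after seeing the data. No siRNA effect of a member passed in any of 855 tests over all fits (lowest adjusted p = 0.0583).

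Counts of all genes called, in the order UM-UC-3 siACAT1-1, UM-UC-3 siACAT1-2, T24 siACAT1-1, T24 siACAT1-2, the mean, the difference between lines and that between siRNAs, were 2, 11, 25, 54, 45, 0 and 515. They were 18, 39, 399, 254, 318, 1 and 1321 with DESeq2, 167, 58, 463, 180, 383, 29 and 884 without the filter, and 617, 273, 2799, 1708, 2500, 21 and 4141 with the replicate block. With only the libraries of T24 they were 1 and 2 in T24. Without the T24 libraries numbered 2 they were 593 and 140 in T24, 436 for the mean, 3 between lines and 1401 between siRNAs. Without the UM-UC-3 libraries numbered 3 they were 3 with siACAT1-2 in UM-UC-3, 8 for the mean and 166 between siRNAs. The cause was not tested.

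Leaving out 1 library at a time gave 2 to 8 calls with siACAT1-2 in UM-UC-3, 2 to 452 and 13 to 89 in T24, 6 to 143 for the mean, 0 to 1 between lines and 165 to 900 between siRNAs. Among the siRNA and line values printed for the members, those that changed sign were TP63 with siACAT1-1 (-0.11 to 0.34) and siACAT1-2 (-0.37 to 0.15) in UM-UC-3, PPARG there (-1.08 to 0.64 and -0.58 to 0.74), with siACAT1-1 in T24 (-0.081 to 0.28) and in the mean (-0.16 to 0.51), GATA3 with siACAT1-1 in UM-UC-3 (-0.13 to 0.94), KLF5 with siACAT1-2 in UM-UC-3 (-0.036 to 0.47), in T24 (-0.82 to 0.22 and -0.23 to 0.46) and in the mean (-0.0094 to 0.36), FOXA1 with siACAT1-2 in UM-UC-3 (-0.0045 to 1.15) and with siACAT1-1 in T24 (-0.11 to 0.69), and UPK2 between lines over all treatments (-0.21 to 0.0031).

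The low counts limit what can be said of GATA3, ELF3, TP63 and the uroplakins, and their intervals for the siRNAs are wide. ELF3 could not be fitted with only the siNC libraries, where the filter removed it.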
